A study of Mus musculus with 9 samples.

Results

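The insulin-like growth factor (IGF) system was followed through mouse embryonic fibroblasts (MEF), cells of the embryonic stem line R1, and induced pluripotent stem (iPS) cells. The genes listed for it were 10: the ligands Igf1 and Igf2, the receptors Igf1r and Igf2r, the binding protein genes Igfbp2, Igfbp3, Igfbp4, Igfbp5 and Igfbp7, and H19, the non-coding RNA gene next to Igf2. A gene was taken where a probe set of the array carried its symbol and no other, which held for 9 of the 10, each with 1 probe set, among 19938 genes. H19 had no such probe set, and its own level was not analysed here.

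Total RNA had been hybridised to 9 whole-transcript arrays, 3 of each group. The MEF were at a passage under 3 and were the cells that gave rise to the iPS cells. R1 is an established line, and the iPS cells were derived from the MEF and are described in the labels as inducible. The sources used here name no strain, genotype, reprogramming factor, clone or feeder cell for any group. The design text calls the arrays of a line biological repeats without saying whether they came from separate derivations, and a p-value here therefore covers only the spread between the arrays of a group, which may be technical. Array medians lay between 78.2 and 83.3 in linear signal, and 3 arrays a group limit the precision.

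IGF1 and IGF2 are secreted growth factors that signal mainly through the tyrosine kinase receptor encoded by Igf1r. The Igf2r product, the cation-independent mannose-6-phosphate receptor, takes up IGF2 and delivers it for degradation. The IGF binding proteins hold the ligands outside the cell and can limit or prolong their action. Igf2 is imprinted and expressed from the paternal chromosome, while its neighbour H19 and, in most mouse tissues, Igf2r are expressed from the maternal one. Igf2 and H19 are strongly expressed in the mesenchyme of the embryo and fall in most tissues after birth.

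Against MEF, 7 of the 9 measured genes fell and 1 rose in the iPS cells, and the same counts held for R1 cells. Igf2, Igf1, Igf1r, Igf2r, Igfbp4, Igfbp5 and Igfbp7 were the genes that fell in both, Igfbp2 rose in both, and Igfbp3 was not called in either. Calls required a limma p-value under 0.05 after Benjamini-Hochberg adjustment over all genes, and a difference of at least 1 in log2(signal + 16), the scale of all differences below. Of all genes, 12.7% were called in iPS against MEF (5.08% higher, 7.57% lower) and 13.5% in R1 against MEF (5.56% higher, 7.93% lower). By the adjusted p alone, 8 of the 9 differed in iPS and 9 of 9 in R1, beside 48% and 48.9% of all genes. The median difference of the 9 genes was -2.05 in iPS against MEF and -2.13 in R1 against MEF, beside 0.02 for all genes in each. Adjusted p-values of the called members lay between 1.72e-09 and 1.94e-06 for iPS and between 8.95e-10 and 2.30e-06 for R1. Both comparisons use the same MEF arrays, so they are not independent of each other. In bulk RNA, fewer cells that express a gene and less RNA per cell cannot be told apart.

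**Figure D1:**
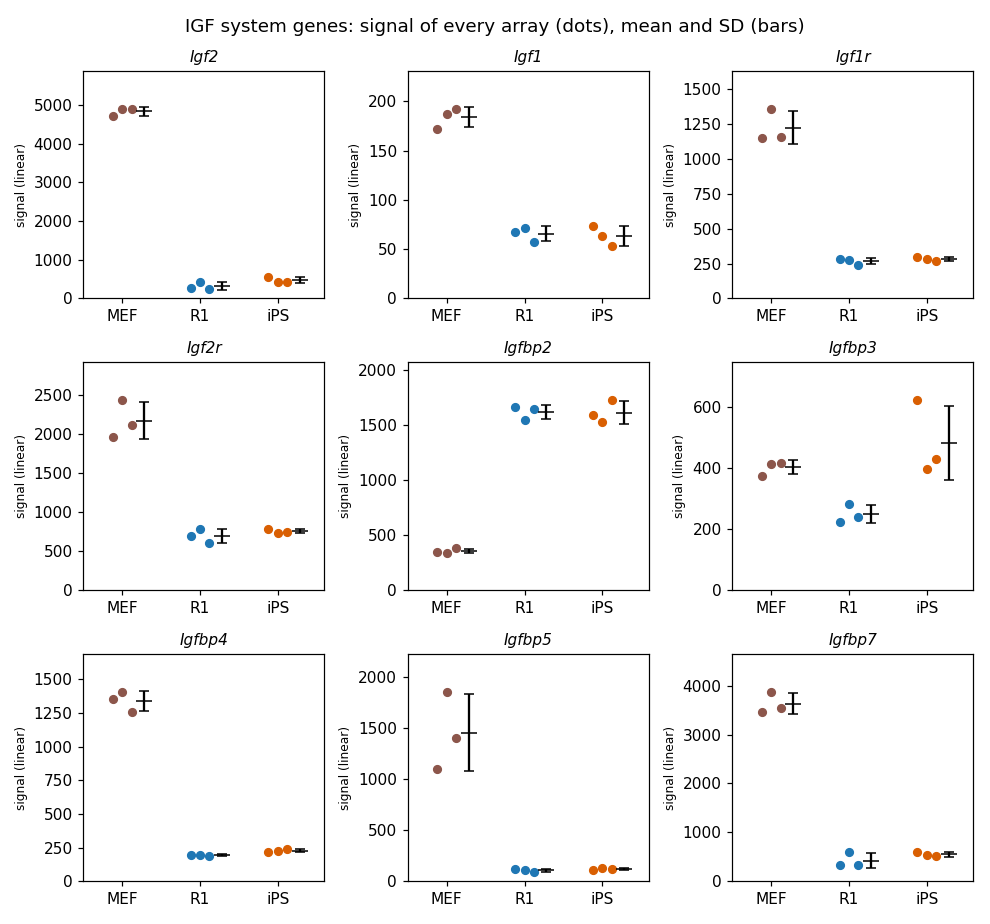
Linear signal of the 9 measured IGF system genes, a panel per gene with its own axis from 0. Coloured dots are single arrays (3 per group), and the black bar is the mean with its SD. Igfbp2 is the gene whose R1 and iPS arrays lie above MEF, and Igfbp3 is the gene whose iPS arrays overlap those of MEF.

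Igf2, the ligand of fetal growth, gave signals of 4705, 4905 and 4905 in the MEF arrays. Its signals were 274, 437 and 234 in R1 replicates 1, 2 and 3, and 553, 419 and 428 in the iPS replicates. The MEF arrays stood far above all others, and iPS replicates 2 and 3 lay below the highest R1 array, so R1 and iPS overlapped. Mean signal was 10.4-fold lower in iPS than in MEF, with a difference of -3.34 ± 0.19 (SE, adjusted p = 3.43e-07). In R1 it was 15.4-fold lower (-3.92 ± 0.19, adjusted p = 1.03e-07). iPS exceeded R1 by 0.58 ± 0.19, with a 95% interval from 0.15 to 1.01 and an adjusted p of 0.110, which was not called. R1 replicate 2 was the highest R1 array for Igf2, and without it the difference was 0.83 (adjusted p = 0.00518), still under the minimum of 1. That was the largest value with single arrays left out, which gave 0.40 to 0.83 and adjusted p from 0.00518 to 0.295.

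Igf2 and H19 each carry a microRNA hairpin within the gene in the RefSeq annotation (GRCm38.p6), Mir483 in Igf2 and Mir675 in H19. The mature sequences (miR-483-5p at chr7:142654968-142654989, miR-483-3p at chr7:142654932-142654952, miR-675-5p at chr7:142577112-142577133, miR-675-3p at chr7:142577078-142577099) are shown because their probe sets gave the only readings taken at these loci apart from Igf2 itself. Capitals mark the seed (bases 2 to 8), and all lie on the minus strand.
mmu-miR-483-5p: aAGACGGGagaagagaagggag
mmu-miR-483-3p: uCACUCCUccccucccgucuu
mmu-miR-675-5p: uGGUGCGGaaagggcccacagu
mmu-miR-675-3p: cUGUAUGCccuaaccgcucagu
The 4 seeds differ from each other. The probe set of Mir483 had signals of 234, 169 and 218 in MEF, 214, 198 and 195 in R1, and 249, 223 and 186 in iPS arrays, so all groups overlapped while the host gene Igf2 fell. Its difference was 0.08 ± 0.12 in iPS against MEF (interval -0.20 to 0.36) and -0.02 ± 0.12 in R1 (-0.30 to 0.26). The array does not tell a mature microRNA from longer RNA that holds its sequence.

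Mir675 is listed only on probe set 10569341, which the platform annotation also assigns to Supt6, a transcription elongation factor gene on another chromosome. It is therefore unnamed here, and what it measures is not settled. Its signals were 7486, 7858 and 7913 in MEF, 360, 560 and 254 in R1, and 849, 431 and 653 in iPS arrays. MEF arrays were far above the rest, R1 and iPS overlapped, and R1 replicate 2 was the highest R1 array here too. In a fit over all 35557 probe sets the difference was -3.61 ± 0.30 in iPS against MEF (adjusted p = 1.90e-05), -4.32 ± 0.30 in R1 (adjusted p = 5.89e-06) and 0.71 ± 0.30 between iPS and R1 (adjusted p = 0.279).

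**Figure D2:**
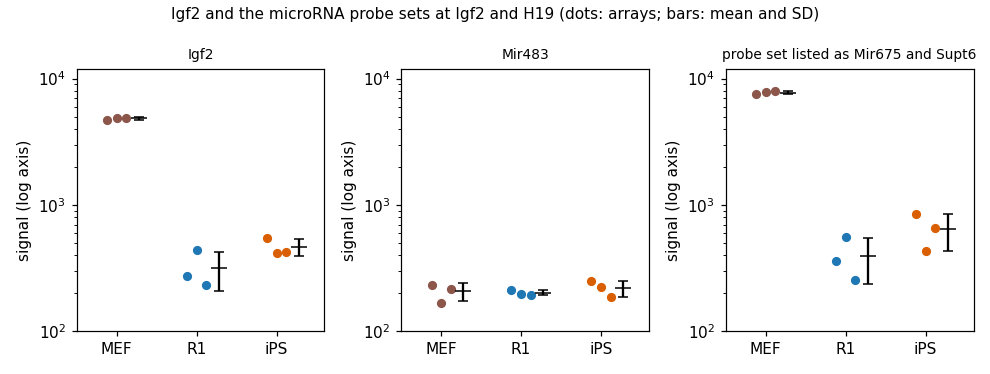
Signal on a log axis for Igf2, for the probe set of Mir483, which lies within Igf2, and for the probe set listed under both Mir675 and Supt6. Dots are arrays and bars the mean with SD. Igf2 and the last probe set drop from MEF to R1 and iPS, while Mir483 stays between 169 and 249.

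Igf1, the ligand best known as a mediator of growth hormone, was dim. Its signals were 172, 187 and 193 in MEF, 67.6, 72.0 and 57.3 in R1, and 73.5, 63.1 and 53.1 in iPS arrays. All MEF arrays lay above all others, while R1 and iPS overlapped. The decrease was -1.34 ± 0.10 in iPS and -1.30 ± 0.10 in R1, and the gene was not called with a pseudocount of 64 (-0.97 and -0.94). The R1 and iPS signals were below the array medians. iPS differed from R1 by -0.05, with an interval from -0.27 to 0.18.

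**Figure D3:**
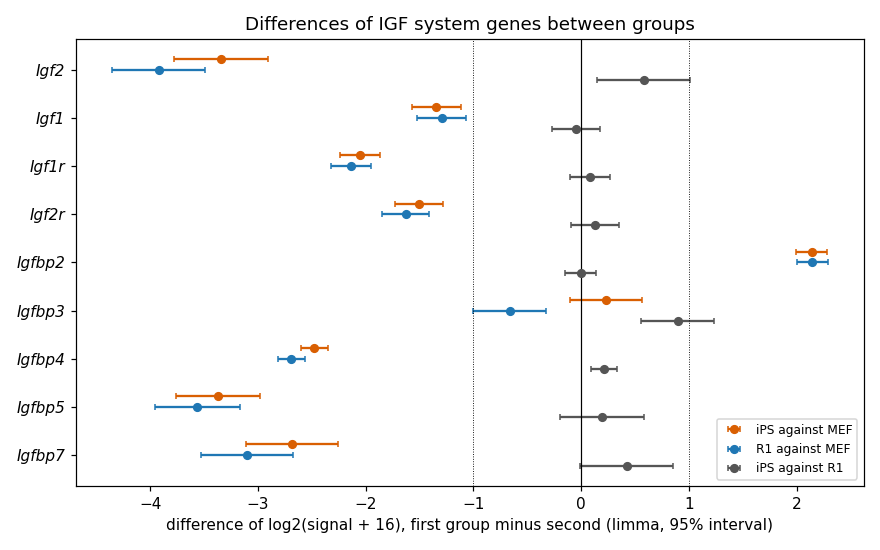
Differences of log2(signal + 16) for the 9 genes, first group minus second, as points with 95% intervals from limma. Dotted lines mark the minimum difference of 1. Points of both comparisons against MEF lie to the left of -1 for the 7 genes that fell and to the right of 1 for Igfbp2 (2.14 in each), while no iPS against R1 point passes 1.

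Both receptor genes fell as well. Igf1r, which encodes the signalling receptor of both ligands, had signals of 1152, 1361 and 1160 in MEF, 282, 276 and 241 in R1, and 300.2, 280.1 and 267 in iPS arrays. It was 4.33-fold lower in iPS (-2.05 ± 0.08, adjusted p = 3.74e-08) and 4.60-fold lower in R1 (-2.13 ± 0.08, adjusted p = 2.54e-08). Igf2r had signals of 1965, 2435 and 2120 in MEF, 695, 776 and 605 in R1, and 781, 729 and 750 in iPS arrays. Here the MEF arrays were again apart and the other groups overlapped. Its decrease was smaller than that of Igf2, at -1.50 ± 0.10 in iPS and -1.63 ± 0.10 in R1. Airn, the non-coding RNA transcribed against Igf2r, had its own probe set and fell too (-1.73 ± 0.15 in iPS, -1.94 ± 0.15 in R1). Which strand these probe sets read is not stated, so signal from overlapping transcripts cannot be told apart. The iPS minus R1 differences were 0.08 for Igf1r (interval -0.11 to 0.27) and 0.13 for Igf2r (-0.09 to 0.35).

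Among the binding proteins, Igfbp5 fell most. Its signals were 1105, 1859 and 1409 in MEF, 124, 110 and 87.4 in R1, and 111, 134 and 125 in iPS arrays. The MEF arrays spread widely around their mean of 1457 ± 379 (SD, n = 3), yet the lowest of them was far above every R1 and iPS array. The decrease was -3.37 ± 0.17 in iPS and -3.56 ± 0.17 in R1. Igfbp4, which mostly restrains IGF action, had signals of 1351, 1409 and 1261 in MEF, 195, 199 and 187 in R1, and 217, 228 and 237 in iPS arrays. Groups were fully separated, in the order MEF, iPS, R1, with decreases of -2.48 ± 0.06 in iPS and -2.69 ± 0.06 in R1. Igfbp7, a more distant relative with low affinity for IGFs, had signals of 3468, 3875 and 3541 in MEF, 326, 600.5 and 345 in R1, and 600.5, 545 and 512 in iPS arrays. Its decrease was -2.68 ± 0.19 in iPS and -3.10 ± 0.19 in R1, and R1 replicate 2 again stood with the iPS arrays rather than with the other R1 arrays.

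Igfbp2 went the other way. It encodes a binding protein with some preference for IGF2 and is abundant in fetal tissue. Signals were 347, 335 and 377 in MEF, 1663, 1541 and 1641 in R1, and 1585, 1520 and 1722 in iPS arrays. Every R1 and iPS array lay above every MEF array, by 4.57-fold in mean signal for R1 and 4.55-fold for iPS. Both differences were 2.14 ± 0.06, with adjusted p = 5.72e-09 in R1 and 6.98e-09 in iPS. R1 and iPS overlapped fully and differed by -0.01, with an interval from -0.15 to 0.14.

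Igfbp2 and Igfbp5 are direct neighbours in the RefSeq annotation (GRCm38.p6), with 0 genes between them and their 3′ ends facing each other. Their promoter windows are shown because this pair of neighbours changed in opposite directions. Each window runs from 250 bases before to 50 after an annotated start, 5′ to 3′ on the gene's strand, and capitals mark the GC box, GGGCGG or its reverse complement CCGCCC. Of 2 Igfbp2 windows in the table, the one at the outermost start is printed (chr1:72824230-72824529, plus strand), with Igfbp5 (chr1:72874816-72875115, minus strand).
Igfbp2: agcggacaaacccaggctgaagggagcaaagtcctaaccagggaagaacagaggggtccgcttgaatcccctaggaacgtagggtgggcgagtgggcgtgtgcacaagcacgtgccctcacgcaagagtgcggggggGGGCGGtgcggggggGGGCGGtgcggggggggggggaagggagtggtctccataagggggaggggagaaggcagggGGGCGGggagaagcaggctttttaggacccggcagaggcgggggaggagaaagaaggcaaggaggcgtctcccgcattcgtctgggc
Igfbp5: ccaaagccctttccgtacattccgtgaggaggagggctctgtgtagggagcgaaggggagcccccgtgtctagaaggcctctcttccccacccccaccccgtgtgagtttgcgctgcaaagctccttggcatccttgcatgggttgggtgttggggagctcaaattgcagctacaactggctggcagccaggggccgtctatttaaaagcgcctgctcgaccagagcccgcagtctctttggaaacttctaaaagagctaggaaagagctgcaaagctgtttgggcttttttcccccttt
The printed Igfbp2 window held 3 GC boxes and 18 CG dinucleotides, and the Igfbp5 window held 0 and 10. The other Igfbp2 window (chr1:72825137-72825436, plus strand) held 0 GC boxes, as Igfbp5 did, and 14 CG dinucleotides. GC boxes occurred in 35.7% of 32851 promoter windows of 300 bases, and 29.7% of these had as many CG dinucleotides as Igfbp2 or more, against 43.5% for Igfbp5. Of the 13 windows of the 9 measured genes, 6 held a GC box and 1, that of Igfbp4, held TATAAA or its reverse complement TTTATA, a motif found in 13.6% of all windows. These matches describe the letters only.

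Igfbp3, the main carrier of IGFs in serum, had the largest difference of the 9 between iPS and R1 cells. Its signals were 375, 413 and 416 in MEF, 223, 280.1 and 241 in R1, and 622, 396 and 428 in iPS arrays. R1 arrays were below all MEF and all iPS arrays, while iPS and MEF overlapped. R1 differed from MEF by -0.67 ± 0.15 (adjusted p = 0.00386) and iPS from MEF by 0.23 ± 0.15 (adjusted p = 0.262). iPS exceeded R1 by 0.89 ± 0.15, with an interval from 0.56 to 1.23 and adjusted p = 0.00690, short of the minimum difference. The spread in iPS was large, at 482 ± 122 (SD, n = 3), and replicate 1 was the high array. Without iPS replicate 1 the difference was 0.70, and without iPS replicate 2 it was 1.02 and passed both thresholds.

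No member was called between iPS and R1 cells, where 0.461% of all genes were (limma). At an unadjusted p under 0.05 there were 3 members, Igf2, Igfbp3 and Igfbp4. An adjusted p under 0.05 with no minimum difference was met by 2 of 9, Igfbp3 and Igfbp4, beside 8.52% of all genes. Igfbp4 was higher in iPS by 0.21 ± 0.06 (interval 0.09 to 0.34, adjusted p = 0.0478), with separated arrays, and its adjusted p ranged from 0.0419 to 0.150 when single arrays were left out. Over all 9 genes, 7 differences were above 0 and 2 below, with a median of 0.19 against -0.01 for all genes. For Igfbp5 the interval ran from -0.20 to 0.58 and for Igfbp7 from -0.01 to 0.85, which shows how wide the spread of these genes left the estimates. Without R1 replicate 2, Igfbp7 differed by 0.69 (adjusted p = 0.00187). Over all single arrays left out, it differed by 0.27 to 0.69, with adjusted p from 0.00187 to 0.592.

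Markers of fibroblasts moved with these genes. All 12 MEF markers (Col1a1, Col1a2, Col3a1, Thy1, Pdgfra, Pdgfrb, Postn, Fbln5, Prrx1, Twist2, Fn1 and Vim) fell in R1 and in iPS cells, and none was at 0 or under a signal of 50 in any array. Their summed signal was 52952 to 58763 in MEF, 8689 to 10345 in R1 and 10122 to 10425 in iPS arrays. As a percentage of the MEF mean of each gene, the median of the 12 was 7.18, 9.93 and 6.78 in R1 replicates 1, 2 and 3, and 12.3, 10.6 and 11.5 in iPS. R1 replicate 2 was thus the highest R1 array for the median of the markers, as it was for Igf2 and Igfbp7, but not for every gene. Igfbp5, Igf1r and the marker Fbln5 were highest in R1 replicate 1, and the marker Pdgfra in R1 replicate 3. On the same scale Igf2 stood at 4.84 to 9.02% in R1 and 8.66 to 11.4% in iPS arrays, and Col1a1, a collagen chain, at 6.17 to 10.1% and 11.3 to 13.3%. Igfbp5 lay at 6.0 to 8.48% in R1 and 7.65 to 9.22% in iPS arrays. Igf1r (19.6 to 24.5% over both groups), Igf2r (27.8 to 36.0%) and Igf1 (28.8 to 39.9%) lay higher than Igf2 and Igfbp5. The markers themselves spread as widely, from Postn (2.61 to 7.55%) and Fbln5 (3.35 to 4.27%) to Vim (26.5 to 30.6%) and Fn1 (36.5 to 42.5%), so these 5 genes lay within the range of the markers. The part of fibroblast RNA in the R1 and iPS signals was not tested.

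**Figure D4:**
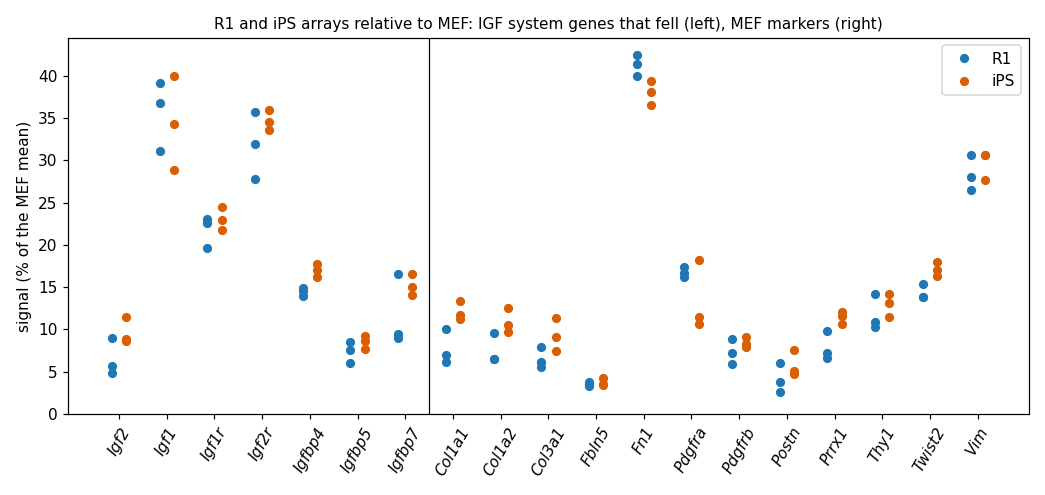
Signal of each R1 (blue) and iPS (orange) array as a percentage of the MEF mean of the same gene, for the 7 IGF system genes that fell (left of the line) and the 12 MEF markers (right). Igf2 and Igfbp5 lie between 4.84% and 11.4%, and Igf1, Igf1r and Igf2r between 19.6% and 39.9%. The markers cover the same span, from 2.61% for Postn to 42.5% for Fn1.

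Other marker lists gave the following, where 12.7% of all genes were called in iPS against MEF and 13.5% in R1. The 12 pluripotent cell markers all rose in both groups, with sums of 536 to 686 in MEF, 42063 to 43530 in R1 and 35325 to 38335 in iPS arrays. Of the 12 skeletal muscle markers, 7 fell in iPS and 8 in R1, and the others, among them Myf5, Myf6 and Ckm, were not called. They summed to 7598 to 9405 in MEF and 1019 to 1292 over R1 and iPS arrays, and most of the MEF sum was cardiac actin, Actc1 (4881 ± 392, SD, n = 3; -4.02 ± 0.14 in iPS). Their part in the result was not tested. The 14 primitive and visceral endoderm markers, of which Pdgfra and Sparc are also fibroblast genes, summed to 9526 to 10013, 2695 to 3002 and 2577 to 2924 in MEF, R1 and iPS arrays. Sparc alone, with a mean of 6735, was most of the MEF sum. Of the 14, 4 fell in iPS and 3 in R1, and Lama1 rose in both (82.6 in MEF, 409 in R1, 325 in iPS). The others were not called, and the median difference of the 14 was 0.02 in iPS and 0.08 in R1. The 11 measured macrophage markers summed to 426 to 472 in MEF, below the 632 to 654 in R1 and 583 to 596 in iPS arrays, with 1 gene called, Cd68, and 9 or 10 of the 11 under a signal of 50 in every array. The 10 endothelial markers summed to 1466 to 1588 in MEF, above the 1168 to 1248 in R1 and 1005 to 1127 in iPS arrays. That order rests on Flt1, with mean signals of 774 in MEF, 146 in R1 and 197 in iPS. In each comparison against MEF 2 of the 10 fell and 1 rose, Pecam1 (46.8 in MEF, 247 in R1, 208 in iPS). The 9 measured trophoblast markers summed to 888 to 1073 in MEF, 1110 to 1166 in R1 and 1561 to 2033 in iPS arrays. Of them, 3 rose in iPS (Eomes, Krt8 and Tfap2c) and 2 in R1 (Eomes and Tfap2c), while Gata3 fell in both. The others, among them Cdx2, Elf5, Hand1 and Krt7, were not called.

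The pattern of Igf2 over the 9 arrays was nearest to that of 2 fibrillar collagen genes. Likeness was the root mean square distance of log2 values after each gene was centred on its own mean, so it reflects chiefly the step between MEF and the other arrays. Col1a2 was nearest (distance 0.12), followed by Col3a1 (0.13), Phldb2 (0.13), the smooth-muscle actin gene Actg2 (0.15) and Plau, which encodes urokinase (0.16). Col1a2 signals averaged 7666 ± 327 in MEF, 577 ± 136 in R1 and 839 ± 112 in iPS arrays (SD, n = 3), and its differences from MEF were -3.18 in iPS and -3.72 in R1.

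Some chromosomal neighbours of Igf2 also changed. Of 16 other measured genes of the surrounding region, 1 rose and 2 fell in iPS against MEF, and 1 rose and 3 fell in R1. Of all genes, 12.7% and 13.5% were called, and 16 genes are too few to set the neighbours apart from these shares. Lsp1, a leukocyte actin-binding protein gene on the far side of H19, fell (-3.60 in iPS, -3.75 in R1). Tnnt3, a troponin of fast muscle, fell in R1 (-1.17 ± 0.11) and stood at -0.99 ± 0.11 in iPS. Ins2, the insulin gene next to Igf2, differed by -0.05 and -0.04. Further along lies the imprinted domain of Kcnq1, where Cdkn1c, a CDK inhibitor, fell (-1.15 in iPS, -1.82 in R1). Phlda2, which restrains placental growth, rose by 3.84 and 3.42. Mean MEF signal was under 100, a level chosen after the values were seen, for 8 of the 16. These means ran from 26.1 to 95.7, near or below the array medians, which leaves little room for a decrease to be seen. Of the 8 at or above it, 2 fell in iPS and 3 in R1. The median over the 16 genes was -0.02 in iPS and 0.01 in R1.

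**Figure D5:**
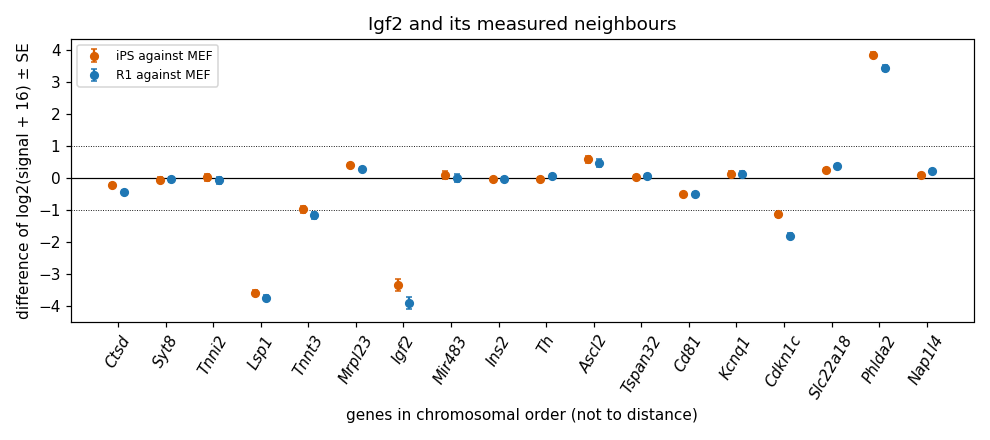
Differences of log2(signal + 16) from MEF for Igf2, Mir483 and the measured neighbours in chromosomal order, with SE bars and spacing that does not follow distance. Dotted lines mark differences of 1 in either direction. Lsp1, Igf2 and Cdkn1c lie below the lower line and Phlda2 above the upper one in both comparisons.

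Among the other ligands, receptors and binding proteins, 8 of 10 listed genes were measured, and 1 fell in iPS and 2 in R1. Shares of all genes called were 12.7% in iPS and 13.5% in R1, and 8 genes are too few to set apart from them. Igfbp6, which prefers IGF2, fell (-2.37 in iPS, -2.40 in R1). The insulin receptor gene Insr stood at -0.99 in iPS, just short of the minimum difference, and just past it in R1. Proteases that cut IGF binding proteins, and their inhibitors, had 6 of 12 genes lower and 0 higher in each comparison. Lower calls made up 7.57% of all genes in iPS and 7.93% in R1. Medians of the 12 were -0.90 in iPS and -1.48 in R1. These included Pappa, pappalysin, which cleaves IGFBP4 (-2.61 ± 0.20 in iPS, -2.94 ± 0.20 in R1), Adam12 (-2.94 and -2.98), Adam9 (-2.11 and -2.26) and the serine protease Prss23 (-3.76 and -3.95). Htra1, a secreted serine protease, fell less in iPS (-1.14 ± 0.14) than in R1 (-2.14 ± 0.14). Between iPS and R1 it differed by 0.99 ± 0.14 (adjusted p = 0.00272), just short of the minimum difference, and no gene of these lists was called.

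Inside the cell, 27 of 30 listed signalling genes were measured. In iPS against MEF 2 rose and 4 fell, in R1 1 rose and 5 fell, and 21 were not called in each. Medians were 0.09 and 0.06, and 12.7% and 13.5% of all genes were called. Irs1, the docking protein of the activated receptor, fell (-2.10 in iPS, -2.47 in R1), as did Akt1, the kinase downstream of PI3K (-2.04 and -2.47). The receptor-binding adaptors Grb10 (-1.41 and -2.03) and Grb14 (-1.75 and -1.96) fell also, while the docking protein Gab1 rose (2.28 and 2.81).

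Regulators of Igf2 and H19 were listed as 22 genes, of which 7 rose and 3 fell in each comparison against MEF. Medians were 0.39 in iPS and 0.46 in R1. Among all genes, 12.7% were called in iPS and 13.5% in R1. The DNA methylation genes Dnmt3l (5.44 in iPS, 5.08 in R1) and Dnmt3b (3.99 and 3.30) and the 5-methylcytosine dioxygenase Tet1 (4.67 and 4.79) rose, and Hmga2 fell (-2.91 and -3.35). The other genes that fell were Tet3, of the same family as Tet1, and Plagl1. Mean signals in MEF, R1 and iPS were 280, 67.9 and 70.3 for Tet3, and 736, 176 and 223 for Plagl1. Dppa3, a factor that guards imprints in the early embryo, was the 1 gene of this list called between iPS and R1. Its signals were 290 ± 44 in iPS and 82.6 ± 10 in R1 arrays (SD, n = 3), a difference of 1.63 ± 0.17. Of 4 measured RNA-binding protein genes that act on Igf2 mRNA or with it, 3 rose: Igf2bp1 (1.79 in iPS, 1.51 in R1), Lin28a (3.17 and 3.03) and Lin28b (2.35 and 1.89). Higher calls made up 5.08% of all genes in iPS and 5.56% in R1.

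Other imprinted growth genes had 16 of 20 measured, with 9 lower and 2 higher in each comparison against MEF. Medians were -1.11 in iPS and -1.48 in R1. Lower calls made up 7.57% and 7.93% of all genes, and higher calls 5.08% and 5.56%. Dlk1, a Notch-like membrane protein, fell (-3.35 in iPS, -3.49 in R1), and so did Ndn (-1.83 and -2.25). Peg3, a paternally expressed zinc-finger gene, was called between iPS and R1. Its signals were 911 ± 111 in iPS, 307 ± 11 in R1 and 1111 ± 52 in MEF arrays (SD, n = 3), a difference of 1.51 ± 0.08 between iPS and R1 (adjusted p = 2.05e-05).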

How the data were processed

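RNA of 9 samples was measured on arrays. The authors deposited 1 linear intensity per probe set and array. Per the submitters' processing notes, GCOS 1.4 was used, with no role named, with background correction, summarization and normalization not given in the sources used here. Deposited values (4 to 18820.3) were nearly equal in median across arrays and were not normalized further. There were no detection calls, so weak expression and background could not be separated, and 0 pairs of arrays were identical.

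Of 35557 probe sets, the platform annotation gave 21789 a single symbol and 1621 several, and 12147 are unnamed here. The latter 2 kinds were left out of the main fit. Entrez identifiers matched 21698 of the 21789 in a RefSeq table (GRCm38.p6), used for names and gene order. Where a gene had more than 1 (999 genes), the probe set with the highest mean of log2(signal + 16) stood for it.

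A model with a mean per group was fitted to log2(signal + 16) of all 19938 genes and 9 arrays in limma 3.58.1 (lmFit, eBayes; R 4.3.3; 6 residual degrees of freedom). The pseudocount of 16 makes differences of dim genes too small. The scripts were tested on simulated data. Promoter and microRNA sequences are RefSeq's (GRCm38.p6), matched for all 9 measured genes. The planned difference of Igf2 and H19 within arrays was not computed, since H19 had no probe set of its own.

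The members and gene lists were chosen with earlier results of these data known. By rule, the text named all members, up to 4 called genes of largest difference per list and comparison, up to 3 of highest mean signal per marker list, and the 5 genes nearest to Igf2. Ins2, Htra1, Tet3, Plagl1, the other markers and values not called beside called ones are given outside this rule, after they were seen. Alternatives covered normalization, pseudocount, dim genes, probe set choice, thresholds, variance model, array weights, samples in the fit, replicate number and single arrays.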

Additional observations from a re-analysis of the deposited data

Results flagged for a closer look

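Between iPS and R1 cells, the test of the difference itself had an adjusted p under 0.05 for 2 of 9 IGF system genes and 8.52% of all genes. The changes of these 2 from MEF were thus not of equal size. Igfbp3 differed by 0.89 and Igfbp4 by 0.21, both higher in iPS.

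The same test passed for 12 other genes that the naming rule gave. Most of these were named for large differences from MEF, so the 8.52% of all genes is not a like comparison. Higher in iPS were Grb10 (0.62), Akt1 (0.42), Dppa3 (1.63), Dnmt3b (0.68), Igf2bp1 (0.28), Lin28b (0.45), Cdkn1c (0.67), Phlda2 (0.42), Peg3 (1.51), Ndn (0.42) and the fibroblast marker Col1a1 (0.67), and Gab1 was lower (-0.53). Of the 12, Dppa3 and Peg3 also passed the minimum difference of 1. The rule named these 2 because they were called in this comparison, so their passing was fixed by the choice. Htra1, named outside the rule, passed the test too (0.99). Of the marker lists, only the MEF markers named by rule were screened.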

How the results depend on the processing

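Over 23 alternatives, 607 of 621 values of single members kept their direction and their side of the thresholds, 3 lost a call, 4 gained one and 7 changed sign. The losses were those of Igf1 with a pseudocount of 64 and, in R1, when tested against a difference of 1 (adjusted p = 0.0796). The changes of sign were all between iPS and R1, for Igfbp2 (0.00037 with quantile normalization, -0.056 to 0.033 with single arrays left out) and Igf1 (-0.14 to 0.048 with single arrays left out), and neither was called. Members called against MEF numbered 7 to 8 in iPS and 7 to 9 in R1. Between iPS and R1 there were 2 with no minimum difference and 0 to 1 with single arrays left out.

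Counts over all genes moved by more than 1.5 times with the thresholds: from 2523 to 9571 in iPS against MEF, from 2689 to 9748 in R1 against MEF, and from 92 to 1698 between iPS and R1 with no minimum difference, and to 1642 and 10 in the first and last when tested against a difference of 1. The last count was also 45 with a pseudocount of 64 and 144 with all probe sets in the fit, where more features were tested. The adjusted p of Igfbp4 between iPS and R1 ranged from 0.0211 to 0.150 without the test against 1, and that of Igfbp3 from 0.00241 to 0.0344. With the replicate number as a replicate block, the called members were 8, 8 and 0 and no call changed. Whether the numbers pair the samples could not be told, since the 3 deviations of a group sum to 0. Same-numbered iPS and MEF arrays deviated together with correlations of 0.229, 0.062 and -0.018, and differently numbered ones with -0.218 to 0.198. Same-numbered values were 0.21, 0.196 and -0.035 for R1 with MEF, and 0.245, 0.017 and -0.082 for iPS with R1. Signal near background limits Igf1 most, and no alternative on Igf2 minus H19 could be run.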
